A study of Mus musculus with 6 samples.

Results

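Ubiquitin-specific proteases (USPs) were examined as the genes whose symbol in the count table is Usp, then digits, then at most 1 letter. This rule takes 50 of 21878 genes, chosen by name alone. RNA was sequenced from cultured mouse macrophages that had been grown from C57BL/6 bone marrow, genotype WT, in 50 ng/mL of the growth factor M-CSF. Before treatment every culture spent 48 h across a transwell membrane (0.4 µm pores) from LLC, a lung carcinoma cell line of mouse, so no group without tumour cells is compared here. After a change of medium, 1 group was given 100 µg/mL of the plant sesquiterpene β-elemene for 24 h, and the control group received phosphate-buffered saline (PBS) in the same volume for 24 h. Each group has 3 libraries, numbered 1 to 3 in the sample titles, and no label says whether they are separate cultures or animals, so p-values measure only the spread between libraries, which may be technical. The submitters' library names read M1 for β-elemene and M2 for PBS, letters that the labels leave unexplained; groups here follow the titles.

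USPs are the largest family of deubiquitinases, enzymes that cut ubiquitin from proteins, and USPs do so with a catalytic cysteine. By removing ubiquitin they can spare a protein from the proteasome, end a ubiquitin-dependent signal, or keep histones unmarked. In macrophages the family is known for control of Toll-like receptor, NF-kB and interferon signalling, and its best-known interferon-linked member, Usp18, acts on ISG15, a ubiquitin-like protein, in place of ubiquitin.

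Total counts per library ran from 18916844 to 20729887. Levels are given as CPM, that is counts relative to the size of the library, after TMM scaling, a method that sets libraries to a common centre. Values for 3 libraries stand in the order of replicates 1, 2 and 3. All 10 macrophage markers were tested and their sums lay between 23541 and 24859 CPM in treated libraries and between 20342 and 21671 in controls, the lysozyme gene Lyz2 having 9199.8 ± 398 CPM under β-elemene against 6774 ± 378 under PBS (mean ± SD, n = 3), while 9 carcinoma and epithelial markers summed to at most 0.245 CPM in any library, with Krt19, Cldn4 and Esrp1 at 0 in every library. Summed fibroblast markers lay at 1.69 to 3.87 CPM with β-elemene against 13.2 to 17.2 with PBS, and neutrophil markers at 22.3 to 26.2 against 9.67 to 12.7. Among neutrophil markers the largest difference in level was that of S100a8 (15.8 ± 1.13 against 4.02 ± 0.765 CPM), while Mpo fell (log2 fold change -3.35) and Elane and Prtn3, at most 0.468 CPM in any library, were lower without overlap. The 6 mast cell markers summed to 151 to 190 CPM against 6.29 to 14.9, nearly all of it Hdc, with Fcer1a at 0 in every library. Dendritic markers summed to 4.23 to 11.0 against 4.03 to 4.85 CPM, B cell markers to 0.984 to 1.90 against 1.94 to 4.45, and T and NK markers to at most 0.716 CPM. The part of these cell types in the USP results was not tested, and in bulk RNA fewer cells of a type and less RNA per cell cannot be told apart.

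RefSeq promoters of build GRCm38.p6 matched 38 of the 50 members, and the 250 bases before the start are printed for 3 of them. Usp27x and Usp20 have the largest rise and the largest fall among matched members whose 250 bases lie outside the annotated gene, and Usp49 is the member with a match to the interferon-response letters. Capitals mark GGGCGG, the GC box, on either strand in the first 2 lines and GAAA, any 2 bases, GAAA, the interferon-stimulated response element (ISRE), in the third. The windows are chrX:7375831-7376080 (minus strand), chr2:30982029-30982278 (plus strand) and chr17:47630440-47630689 (plus strand).
Usp27x: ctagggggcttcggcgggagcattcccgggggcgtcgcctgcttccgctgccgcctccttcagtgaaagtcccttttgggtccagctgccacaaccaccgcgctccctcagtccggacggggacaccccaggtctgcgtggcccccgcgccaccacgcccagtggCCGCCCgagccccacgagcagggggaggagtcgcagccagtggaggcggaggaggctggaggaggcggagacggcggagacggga
Usp20: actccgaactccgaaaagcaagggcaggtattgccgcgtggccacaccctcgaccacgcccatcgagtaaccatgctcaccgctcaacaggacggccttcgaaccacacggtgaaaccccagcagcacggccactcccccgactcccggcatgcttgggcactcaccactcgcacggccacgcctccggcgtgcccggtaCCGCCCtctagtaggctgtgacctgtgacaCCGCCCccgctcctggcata
Usp49: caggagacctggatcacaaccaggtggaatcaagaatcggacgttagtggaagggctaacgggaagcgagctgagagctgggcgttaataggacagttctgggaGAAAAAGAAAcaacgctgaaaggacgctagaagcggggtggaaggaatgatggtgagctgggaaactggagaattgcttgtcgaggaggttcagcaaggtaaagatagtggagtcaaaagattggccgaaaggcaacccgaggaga
The Usp27x and Usp20 windows hold 1 and 2 GC boxes and 24 and 23 CpG dinucleotides, though the transcript levels of these genes moved in opposite directions. CpG-rich starts were common among tested members of the family. The median of the 38 windows was 23.5 CpG dinucleotides and 65.0% G and C, against 6 and 52.4% over all 32851 promoter windows. Median CpG was 25 both for the 16 matched members that rose and for the 10 that fell. It was 18 for the 6 that did not pass and 6.5, with 49.4% G and C, for the 6 that were not tested. GC boxes stood in 65.8% of USP windows and 32.7% of all windows. These comparisons were not limited to promoters of tested genes. Every motif was read on both strands. The ISRE letters stood in 1 of 38 USP windows (2.63%, against 2.98% of all), and the NF-kB letters GGGA, any 2 bases, TTCC, in 0 (1.21% of all). The AP-1 letters TGANTCA and the STAT letters TTC, any 3 bases, GAA, stood in 3 windows each (7.89%, against 6.75% and 7.02% of all). In the USP windows 0 matches overlapped a match to another of these motifs. Such matches are descriptions of letters and say nothing of binding. Usp1, Usp5, Usp14, Usp18, Usp22, Usp33, Usp39, Usp42, Usp43, Usp44, Usp53 and Usp9x had no entry.

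The USP family was broadly transcribed in these macrophages, and its members moved in both directions. Of 50 members, 42 passed the filter on low counts, and of these 21 rose with β-elemene, 13 fell and 8 did not pass (edgeR quasi-likelihood test, Benjamini-Hochberg adjustment over all 11459 genes tested). The 34 that changed make up 81.0% of the tested members, close to the 76.7% of all genes tested. Rises took 50.0% of members against 36.6% of all genes, and falls took 31.0% against 40.2%. Changes of at least 2-fold were 8 rises (17.0% of all genes) and 3 falls (18.3%), or 26.2% of members together against 35.3%. Groups did not overlap for 88.1% of tested members and 79.9% of all genes. The median log2 fold change was 0.15 over the family and -0.06 over all genes.

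The direction of small changes rests on how libraries are scaled. The TMM factor of a treated library lay between 0.794 and 0.812 and that of a control library between 1.24 and 1.26. Under library size alone the median of all genes moved to -0.70, and 8 members rose and 26 fell (18.9% and 69.8% of all genes). Upper quartile scaling gave a median of -0.37 over all genes, with 15 rises and 21 falls among USPs (25.7% and 57.0% of all genes). The distance between the family's median and that of all genes was 0.21 under each of the 4 scalings. Under all 4 scalings, 8 members rose (18.9% of all genes did) and 12 fell (38.3%): the 8 are Usp18, Usp25, Usp42, Usp12, Usp15, Usp47, Usp53 and Usp32, and the 12 are all falling members but Usp45.

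**Figure D1:**
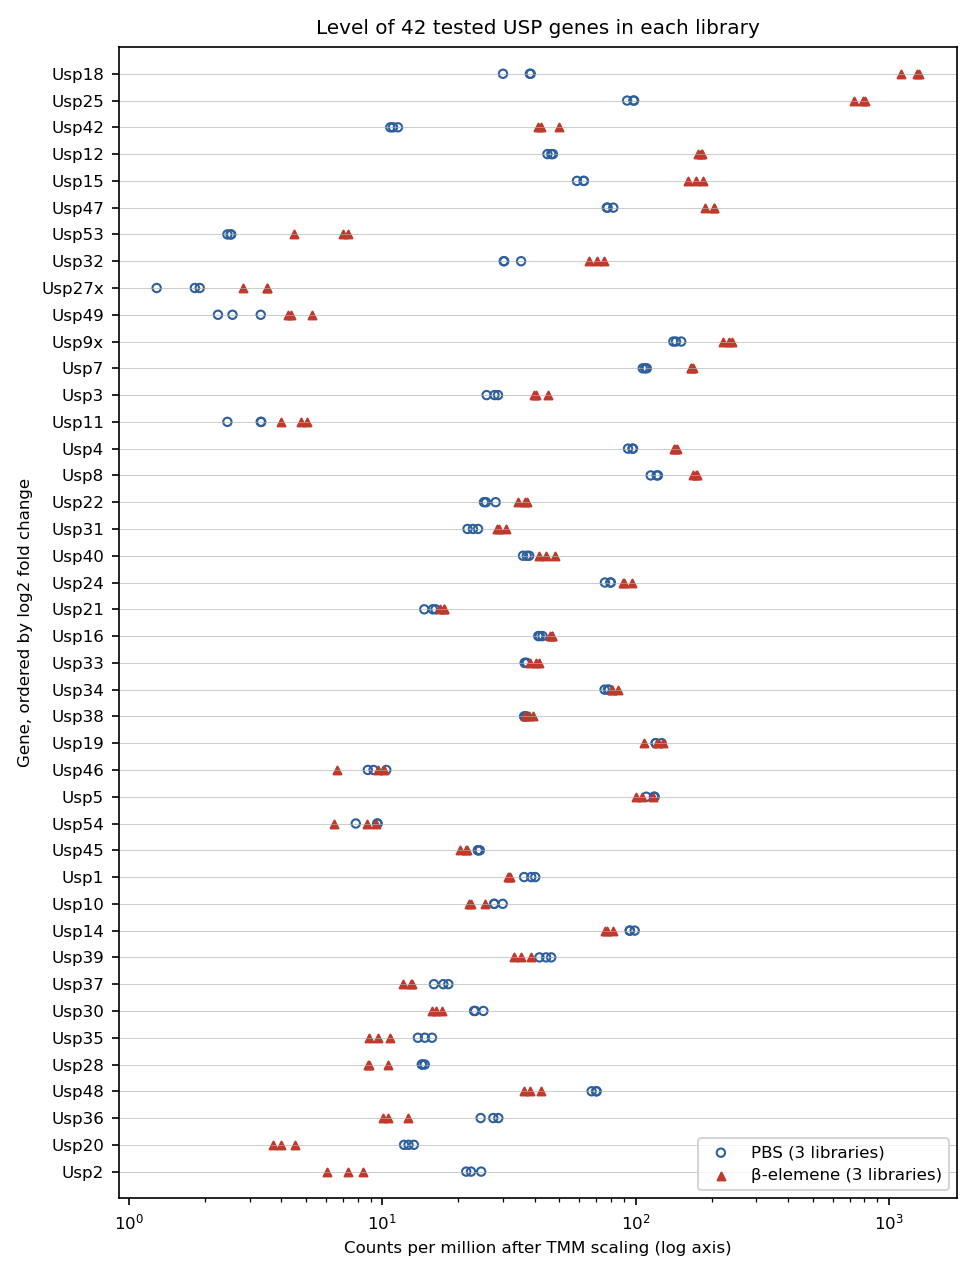
Level of each of the 42 tested USP genes in TMM-scaled CPM on a log axis, with 3 PBS libraries as circles and 3 β-elemene libraries as triangles, ordered by log2 fold change. Usp18 and Usp25 stand far to the right of their PBS libraries at the top, and Usp2 and Usp20 to the left at the bottom.

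**Figure D2:**
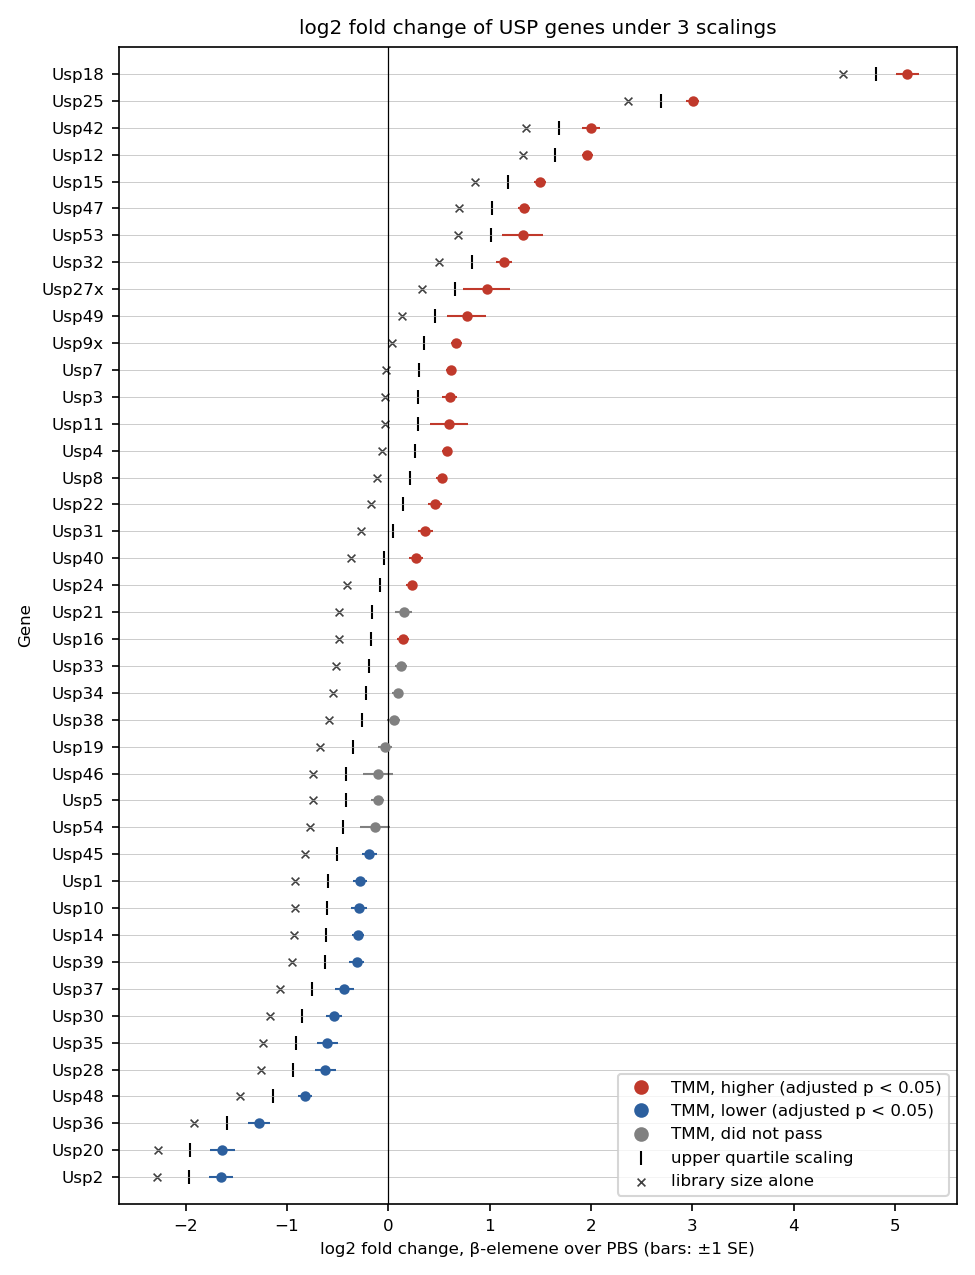
log2 fold change of each tested USP gene, β-elemene over PBS, with TMM scaling (points, bars ±1 SE, coloured by call), upper quartile scaling (vertical ticks) and library size alone (crosses). Another scaling shifts all genes by about the same step, so 11 genes stay to the right of 0 with every scaling shown, 8 of them passing the test each time, while the other small rises cross 0.

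The largest change was that of Usp18, the protease that removes ISG15 from proteins and that also binds the interferon receptor subunit IFNAR2 to damp type I interferon signalling. Usp18 (chromosome 6, 121245906 to 121270917, GRCm38.p6) stood at 1287, 1122 and 1315 CPM with β-elemene and 38.6, 30.0 and 38.3 CPM with PBS. Every β-elemene library lay far above every PBS library, and the log2 fold change was 5.12, SE 0.11, adjusted p = 2.11e-12. With library size alone it was 4.49. A list of 7 genes held ISG15, its conjugating enzymes and the receptor partners of Usp18, and 7 of 7 rose with TMM (6 with library size alone, where Ifnar1 was at 0.0045). Isg15, the modifier itself, stood at 2608, 2553 and 2723 CPM against 37.5, 27.3 and 47 (log2 fold change 6.14, SE 0.21). The conjugating enzymes Uba7 (E1), Ube2l6 (E2) and Herc6 (E3 ligase in mouse) had log2 fold changes of 3.3, 1.8 and 4.57. Thus the genes that attach ISG15 and the gene that removes it were all higher in the same libraries. Stat2, which brings Usp18 to the receptor, rose by 2.96 (SE 0.07), and the receptor genes Ifnar1 and Ifnar2 rose by 0.64 and 1.12. Of the 7, Ifnar1 had the highest adjusted p by edgeR, 3.84e-06. These are genes of the interferon response, whose rise in these libraries was known when the list was drawn up, so their count is no separate evidence.

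Usp25, which deubiquitinates TRAF adaptors of Toll-like receptor and antiviral signalling, had the largest number of counts of any USP after Usp18 in the β-elemene libraries. Usp25 (chromosome 16, 77013684 to 77116783) stood at 789, 729 and 803 CPM with β-elemene and 92.7, 98.8 and 98.1 with PBS, with no overlap (log2 fold change 3.0, SE 0.06, adjusted p = 1.38e-13). Usp18 and Usp25 together took 43.95% to 46.5% of all USP counts in the β-elemene libraries and 6.76% to 6.98% in the PBS libraries. These shares of USP counts are taken within a library and do not depend on scaling. Usp18 alone made up 28.0 ± 1.19% of USP counts with β-elemene and 1.84 ± 0.231% with PBS (mean ± SD, n = 3), and Usp25 17.5 ± 0.172% and 5.00 ± 0.208%. Both differences gave p = 0.1 in a two-sided exact permutation test, the smallest that 3 against 3 libraries allow. The whole family held 0.355 ± 0.0112% of library counts with β-elemene and 0.241 ± 0.00403% with PBS. Without Usp18 and Usp25 it held 0.193 ± 0.00183% and 0.224 ± 0.00368% (exact permutation p = 0.1 for each of the 2 comparisons). Percent of library counts is the scale of library size alone, and the order of these remaining genes rests on it: their summed TMM-scaled level was 2413 ± 45.6 CPM with β-elemene and 1799.7 ± 22.4 CPM with PBS. Groups did not overlap in any of these quantities.

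**Figure D3:**
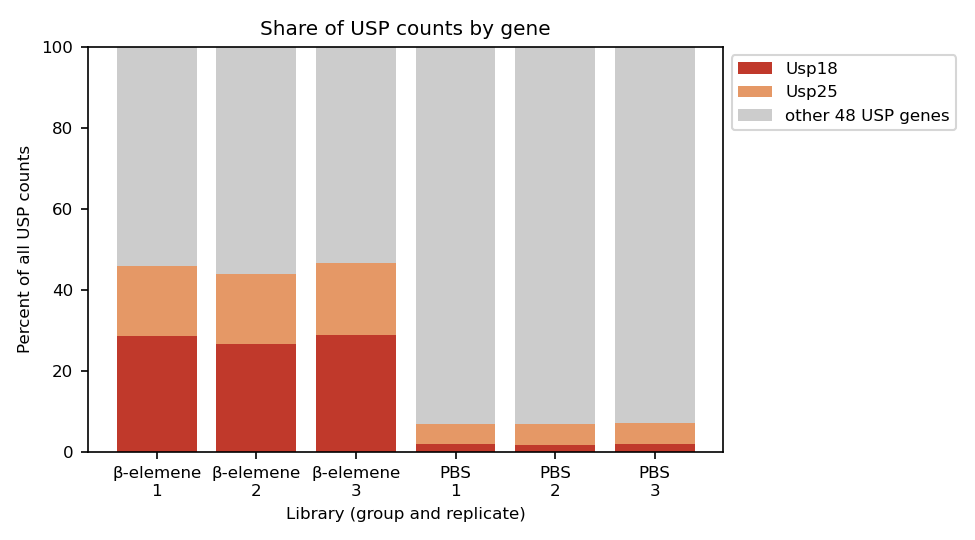
Percent of all USP counts taken by Usp18, by Usp25 and by the other 48 USP genes in each of the 6 libraries. Usp18 and Usp25 together make up 43.95% to 46.5% in the 3 β-elemene libraries and 6.76% to 6.98% in the 3 PBS libraries.

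Compared per kilobase of exon, so that genes of different length can be set side by side, Usp8 was the highest USP with PBS at 28.5 ± 1.00 CPM per kb (SD, n = 3). Usp5 followed at 25.1 ± 1.04, and the libraries of these 2 genes did not overlap. Usp25, Usp39 and Usp19 came next at 18.6 ± 0.644, 18.1 ± 0.966 and 17.4 ± 0.556 CPM per kb, with overlapping libraries. Usp18 was seventh in that order, at 12.8 ± 1.75 CPM per kb. With β-elemene Usp18 led at 445 ± 37.4 CPM per kb and Usp25 was next at 149 ± 7.59. Usp8 at 41.1 ± 0.639 and Usp12 at 38.8 ± 0.687 followed without overlap, and Usp5 stood at 23.3 ± 1.88 and Usp7 at 21.5 ± 0.282 with overlap. Exon lengths are unions over GENCODE M21 transcripts and do not weigh which isoform is used.

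Other members that rose at least 2-fold have known roles in the nucleus, in DNA repair and at membranes. Usp42, a nuclear deubiquitinase of p53 and histone H2B, stood at 41.1, 42.2 and 50.1 CPM with β-elemene and 10.8, 11.5 and 11 with PBS (log2 fold change 2.0, SE 0.09, adjusted p = 1.98e-10). Usp12, which is activated by the WD-repeat proteins WDR48 and WDR20, stood at 177, 183 and 181 CPM against 46.5, 47.2 and 44.9 (log2 fold change 1.96, SE 0.05, adjusted p = 1.33e-12). Both genes had each β-elemene library well above each PBS library. Usp15, a regulator of TGF-beta receptors and SMADs, stood at 173, 161 and 184 CPM against 62.4, 58.7 and 62.6 (log2 fold change 1.5, SE 0.06, adjusted p = 8.46e-11). Usp47, which acts on DNA polymerase beta in base excision repair, stood at 205, 188 and 204 against 77.1, 81.7 and 77.6 CPM (log2 fold change 1.34, SE 0.06, adjusted p = 1.10e-10). Usp32, a membrane-bound member, stood at 70.8, 65.7 and 74.9 against 30.2, 35.3 and 30.3 CPM (log2 fold change 1.14, SE 0.08, adjusted p = 1.32e-08). In these 3 genes too the groups were well apart. Usp53, long classed as a catalytically inactive family member, was low, at 7.32, 7.03 and 4.47 CPM against 2.52, 2.45 and 2.53 (log2 fold change 1.32, SE 0.20, adjusted p = 4.16e-05). Replicate 3 was the lowest β-elemene library for Usp53 but still lay above every PBS library.

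Smaller rises were seen in 13 further members, and 0 of them rose with library size alone. Usp27x, an X-linked relative of the SAGA histone deubiquitinase Usp22, stood at 3.5, 3.51 and 2.82 CPM with β-elemene and 1.82, 1.9 and 1.29 with PBS (log2 fold change 0.97, SE 0.23, adjusted p = 0.00169). Usp49, a histone H2B deubiquitinase, stood at 5.29, 4.23 and 4.35 against 2.25, 2.56 and 3.31 CPM (log2 fold change 0.77, SE 0.20, adjusted p = 0.00281). These are low levels, with 33 to 86 counts per library for the 2 genes. Usp9x, a large X-linked member known to stabilise the survival protein MCL1, stood at 241, 221 and 233 CPM against 144, 141 and 152 (log2 fold change 0.67, SE 0.06, adjusted p = 1.25e-07), and at 0.032 with library size alone. Usp7, which controls MDM2 and p53, stood at 166, 165 and 169 against 107, 111 and 109 CPM (log2 fold change 0.62, SE 0.05, adjusted p = 9.55e-08), and at -0.021 with library size alone. For both genes, counts relative to library size alone were thus nearly level between the groups. Usp3, a histone H2A deubiquitinase, Usp11, Usp4 and Usp8, an endosomal sorting enzyme, had log2 fold changes of 0.61, 0.60, 0.58 and 0.53, against -0.029, -0.035, -0.058 and -0.11 with library size alone. Usp22, Usp31, Usp40, Usp24 and Usp16, a histone H2A deubiquitinase, had 0.46, 0.37, 0.27, 0.23 and 0.15. With library size alone these last 5 turned into falls, at -0.18, -0.27, -0.37, -0.41 and -0.49, and the signs of Usp40, Usp24 and Usp16 also turned with the upper quartile. All 3 tested X-linked members, Usp9x, Usp11 and Usp27x, were among the rises with TMM, and 0 of them with library size alone. Of all genes, 36.6% rose with TMM and 18.9% with library size alone, and no share was computed for X-linked genes.

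The largest fall was that of Usp2, a rhythmically expressed gene whose product acts on cyclin D1. Usp2 (chromosome 9, 44067021 to 44095627) stood at 7.32, 6.05 and 8.4 CPM with β-elemene and 21.5, 24.6 and 22.4 with PBS (log2 fold change -1.65, SE 0.12, adjusted p = 2.13e-08). Usp20 (chromosome 2, 30982279 to 31022655), which binds the von Hippel-Lindau protein and takes part in receptor recycling, stood at 4.0, 3.71 and 4.54 CPM against 12.7, 12.2 and 13.3 (log2 fold change -1.64, SE 0.12, adjusted p = 4.02e-08). Usp36, a nucleolar member known to stabilise MYC, stood at 12.6, 10.5 and 10.1 against 28.7, 24.5 and 27.4 CPM (log2 fold change -1.28, SE 0.10, adjusted p = 8.77e-08). In all 3 genes the highest β-elemene library lay below the lowest PBS library by a wide margin. Usp48, a nuclear member, stood at 38.4, 42.4 and 36.2 CPM against 69.8, 67.1 and 70.3 (log2 fold change -0.83, SE 0.07, adjusted p = 1.03e-07).

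Among the smaller falls were members tied to the cell cycle, DNA repair, mitochondria and the proteasome. Usp28, a nuclear relative of Usp25, stood at 10.6, 8.79 and 8.83 CPM with β-elemene and 14.3, 14.7 and 14.4 with PBS (log2 fold change -0.62, SE 0.10, adjusted p = 1.08e-04). Usp35 stood at 10.7, 8.85 and 9.62 against 15.7, 13.8 and 14.7 CPM (log2 fold change -0.60, SE 0.11, adjusted p = 1.74e-04). Usp30, which sits on the outer mitochondrial membrane and opposes Parkin, stood at 16.3, 15.8 and 17.2 against 23, 25.1 and 23.3 CPM (log2 fold change -0.53, SE 0.08, adjusted p = 4.84e-05). These 3 genes had groups that did not overlap, as had the rest of the falling members. Usp37, which deubiquitinates cyclin A, stood at 12.1, 13 and 13.1 against 17.4, 16 and 18.2 CPM (log2 fold change -0.43, SE 0.09, adjusted p = 8.54e-04). Usp1, which acts on FANCD2 and PCNA after DNA damage, stood at 32, 31.6 and 31.3 against 40.2, 38.8 and 36.3 CPM (log2 fold change -0.28, SE 0.07, adjusted p = 0.00172). Usp39, a splicing factor without protease activity, stood at 35.3, 38.5 and 33 against 44.4, 41.7 and 46.5 CPM (log2 fold change -0.31, SE 0.07, adjusted p = 0.00165). These changes were small but larger than the spread between libraries. Usp14, the USP bound to the proteasome, stood at 76, 81.7 and 77.3 against 99.3, 95 and 94.8 CPM (log2 fold change -0.30, SE 0.06, adjusted p = 2.84e-04). Usp10, a partner of the stress granule proteins G3BP1 and G3BP2, stood at 25.5, 22.3 and 21.9 against 27.7, 29.9 and 27.6 CPM (log2 fold change -0.29, SE 0.08, adjusted p = 0.00552). Usp45, which acts on the repair nuclease subunit ERCC1, had the smallest fall at -0.19, SE 0.07, adjusted p = 0.0335. That call was lost with median-of-ratios scaling at -0.15 (adjusted p = 0.0866), with DESeq2 (adjusted p = 0.176) and on leaving out any 1 of the 6 libraries (adjusted p from 0.0597 to 0.14). Usp16, at the other edge, had an adjusted p of 0.0351 and of 0.0913 with no filter on low counts, and was lost without any 1 PBS library (0.0626 to 0.0993).

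The 8 members that did not pass were spread over the range of levels. Usp19, anchored in the endoplasmic reticulum, stood at 129, 108 and 122 CPM with β-elemene and 120.1, 120.1 and 127 with PBS (log2 fold change -0.03, SE 0.07, adjusted p = 0.661). Usp5, which takes apart free ubiquitin chains, stood at 106, 117 and 100.2 against 119, 110.3 and 118 CPM (log2 fold change -0.10, SE 0.07, adjusted p = 0.159). Both overlapped between groups, and without β-elemene replicate 2 the sign of Usp19 turned to 0.06 and Usp5 passed at -0.14 (adjusted p = 0.0394). Usp34, Usp33, Usp38 and Usp21 had log2 fold changes of 0.09, 0.13, 0.05 and 0.15, and adjusted p of 0.147, 0.0837, 0.445 and 0.126. Without β-elemene replicate 1, Usp33 passed at 0.17 (adjusted p = 0.0362), as it did with median-of-ratios scaling (0.0268), where Usp34 passed too at 0.13 (adjusted p = 0.0472). Usp46 and Usp54 had -0.10 and -0.13, with β-elemene replicate 2 the lowest library in each, and without it 0.09 and 0.03. With library size alone all 8 were lower.

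A further 8 members were too low in counts to be tested. Usp26, Usp29, Usp50, Usp51 and Usp9y had 0 counts in all 6 libraries. There 3 counts, taken as an approximate upper limit for an observed 0, would be 0.116 to 0.195 CPM in a library (counting error only). Usp13 had 1 count in all, in PBS replicate 1. Usp43 had 2, 2 and 0 counts with β-elemene and 1, 0 and 0 with PBS, and Usp44 had 1, 1 and 3 against 2, 0 and 0. These libraries overlapped and are too shallow for a comparison.

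Related members of the family were also compared with each other. The ratio of 2 genes within a library does not depend on how libraries are scaled, so it was compared for 14 pairs of related genes that both had a mean of at least 1 CPM. Usp25 over Usp28, an antiviral signalling gene over its nuclear relative, had log2 ratios of 6.22, 6.37 and 6.5 with β-elemene and 2.69, 2.74 and 2.76 with PBS, a difference of 3.63. Usp36 over Usp42 had -1.7, -2.0 and -2.3 against 1.41, 1.08 and 1.31, a difference of -3.27. In that pair the more abundant gene by counts changed from Usp36 with PBS to Usp42 with β-elemene. Usp12 over Usp46, both partners of WDR48, had 4.2, 4.78 and 4.15 against 2.16, 2.35 and 2.35, a difference of 2.09. Usp2 over Usp21 had -1.25, -1.53 and -1.0 against 0.44, 0.60 and 0.61, a difference of -1.81. Usp20 over Usp33, 2 enzymes that bind the von Hippel-Lindau protein, had -3.26, -3.43 and -3.19 against -1.52, -1.61 and -1.46, a difference of -1.76. Each of these 5 pairs moved by more than 3-fold, with libraries far apart.

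In the trio Usp4, Usp11 and Usp15, which share a DUSP-UBL domain layout, both ratios to Usp15 moved without overlap. Usp4 over Usp15 had log2 ratios of -0.24, -0.18 and -0.36 with β-elemene and 0.65, 0.67 and 0.64 with PBS (difference -0.92), and Usp11 over Usp15 differed by -0.89. Usp4 over Usp11 had 4.85, 5.15 and 4.89 against 4.87, 5.24 and 4.87, with overlap (difference -0.03, exact permutation p = 0.8; -0.12 to 0.10 on leaving out 1 library). Usp53 over Usp54 differed by 1.44, Usp35 over Usp38 by -0.65 and Usp22 over Usp27x by -0.52. Usp9x over Usp34, Usp9x over Usp24 and Usp16 over Usp45 differed by 0.58, 0.44 and 0.34. Groups did not overlap in 13 of the 14 pairs. For single genes 79.9% did not overlap, a share of scaled levels and not of ratios, and none was computed for other gene pairs. Usp4, Usp11, Usp15 and Usp9x each stand in more than 1 pair. Each of the 13 pairs without overlap gave a two-sided exact permutation p = 0.1, the smallest that 3 against 3 libraries allow. After adjustment over 14 pairs this was 0.108, so none could pass 0.05. Reads shared between similar copies such as Usp22 and Usp27x could have been split in counting.

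**Figure D4:**
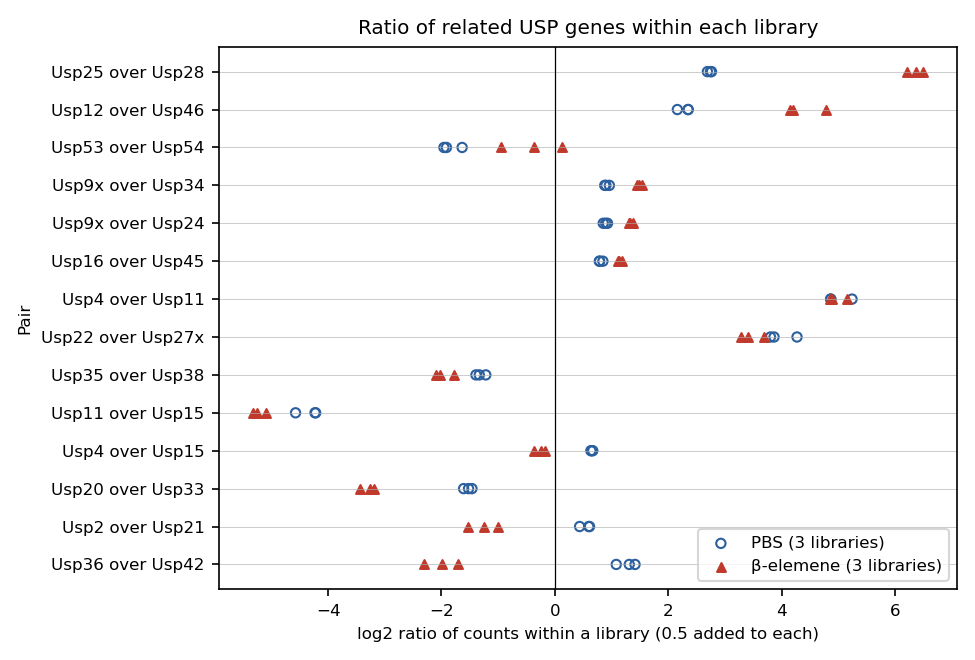
log2 ratio of the counts of 2 related USP genes within each library, with 3 PBS libraries as circles and 3 β-elemene libraries as triangles. The groups are apart in 13 of 14 pairs, most for Usp25 over Usp28 and Usp36 over Usp42, and overlap for Usp4 over Usp11.

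Grouped by role, changes ran both ways within most groups with TMM, where 36.6% of all genes rose and 40.2% fell, and the counts moved under library size alone (18.9% of all genes up and 69.8% down). Of 7 tested chromatin members, 5 rose, 1 fell (Usp36) and Usp21 did not pass with TMM, against 0 rises and 4 falls under library size alone. Of 9 members tied to genome repair or p53, 5 rose and 4 fell with TMM, against 1 rise (Usp47) and 5 falls under library size alone. Of 7 membrane and organelle members, 3 rose (Usp8, Usp9x and Usp32), 2 fell (Usp20 and Usp30) and 2 did not pass with TMM, against 1 rise (Usp32) and 4 falls under library size alone. Of 5 innate and TGF-beta signalling members, Usp15, Usp25 and Usp31 rose, Usp2 fell and Usp38 did not pass with TMM, against 2 rises (Usp15 and Usp25) and 3 falls under library size alone. Of the 2 proteasome and ubiquitin recycling members, Usp14 fell and Usp5 did not pass with TMM, and both fell with library size alone. Of the 3 partners of WDR48, Usp12 rose, Usp1 fell and Usp46 did not pass with TMM. Of 3 members long classed as inactive or tied to RNA, Usp53 rose, Usp39 fell and Usp54 did not pass with TMM. Of 5 others, Usp42 and Usp40 rose, Usp35 and Usp37 fell and Usp34 did not pass with TMM. In each of these last 3 groups 1 member rose with library size alone: Usp12, Usp53 and Usp42. Each member was counted in 1 group only. Usp42, described above with p53 and histone H2B, is thus in neither the chromatin nor the p53 counts.

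Of 17 tested genes whose products work with USPs, 11 rose, 2 fell and 4 did not pass with TMM, against 7 rises and 5 falls under the upper quartile and 5 rises and 11 falls under library size alone. Among all genes, rises and falls took 36.6% and 40.2%, 25.7% and 57.0%, and 18.9% and 69.8% under these 3 scalings. Atxn7l1 and Atxn7, which belong to the SAGA module that anchors Usp22, had log2 fold changes of 1.69 (SE 0.09) and 1.44 (SE 0.08). G3bp2, a Usp10 partner, rose by 1.29 (SE 0.06), while G3bp1 fell by 0.35 on the log2 scale. Wdr48 and Wdr20, the activators of Usp12, Usp46 and, for Wdr48, Usp1, had 0.47 and 0.37 with TMM and -0.16 and -0.27 with library size alone. Stam2, an endosomal partner of Usp8, had 0.88, and Gmps, a Usp7 partner, fell by 0.27 on the log2 scale. The other genes whose proteins belong to the USP family included Cyld, a brake on NF-kB signalling, at 98.9, 109 and 110.3 CPM against 44.6, 47.4 and 49.7 (log2 fold change 1.17, SE 0.07). Pan2, a deadenylase subunit with an inactive USP fold, fell by 0.40 on the log2 scale, and Uspl1 did not pass at -0.18. Among the passing genes just named, the highest adjusted p by edgeR was 0.0137, for Pan2.

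In the other deubiquitinase families 14 of 37 tested genes rose (37.8%), 13 fell (35.1%) and 10 did not pass with TMM, shares near the 36.6% and 40.2% of all genes, and the median log2 fold change was 0.10. Under the upper quartile there were 8 rises (21.6%) and 20 falls (54.1%), against 25.7% and 57.0% of all genes. Under library size alone there were 5 (13.5%) and 26 (70.3%), against 18.9% and 69.8% of all genes. Of 13 OTU genes, 5 rose and 3 fell, with Tnfaip3, the NF-kB inhibitor A20, at 3.72, Otud1 at 2.75, Vcpip1 at 1.59 and Otud5 at 1.24. Otud3, Otulin, which removes linear chains, and Otud6b fell, with log2 fold changes of -0.79, -0.70 and -0.68. All 3 Josephin genes fell, with Josd1 at -0.97, Atxn3 at -0.64 and Josd2 at -0.44. Zufsp, a nuclear peptidase for lysine-63 chains, stood at 157, 143 and 172 CPM against 14.5, 14.4 and 14.8 (log2 fold change 3.44, SE 0.08), next after Usp18 and Tnfaip3 among all deubiquitinases here. Of the MINDY genes Fam188b, Fam63a and Fam63b fell by 1.65, 1.39 and 0.86 on the log2 scale, Fam188b from a low level (1.26 ± 0.269 CPM with PBS), and Fam188a rose by 0.30 with TMM but was at -0.34 with library size alone. In the UCH list 2 of 4 fell, with Uchl3 at -0.78 and Uchl5 at -0.53, and 0 rose. The JAMM metalloprotease list of 12 genes also holds subunits without known protease activity, such as the proteasome subunit Psmd7. All 12 are among the 37. Of the 12, 7 rose and 2 fell with TMM, none by 2-fold (0 and 9 under library size alone). Psmd7 was at 0.57 and Brcc3, a subunit of the BRCA1-A complex, at 0.54, but at -0.071 and -0.096 with library size alone. Of 15 proteases for ubiquitin-like proteins, 7 rose and 5 fell with TMM (46.7% and 33.3%, against 36.6% and 40.2% of all genes) against 1 rise and 11 falls under library size alone. Atg4d was at 1.38 and Atg4c at -0.99 with TMM.

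**Figure D5:**
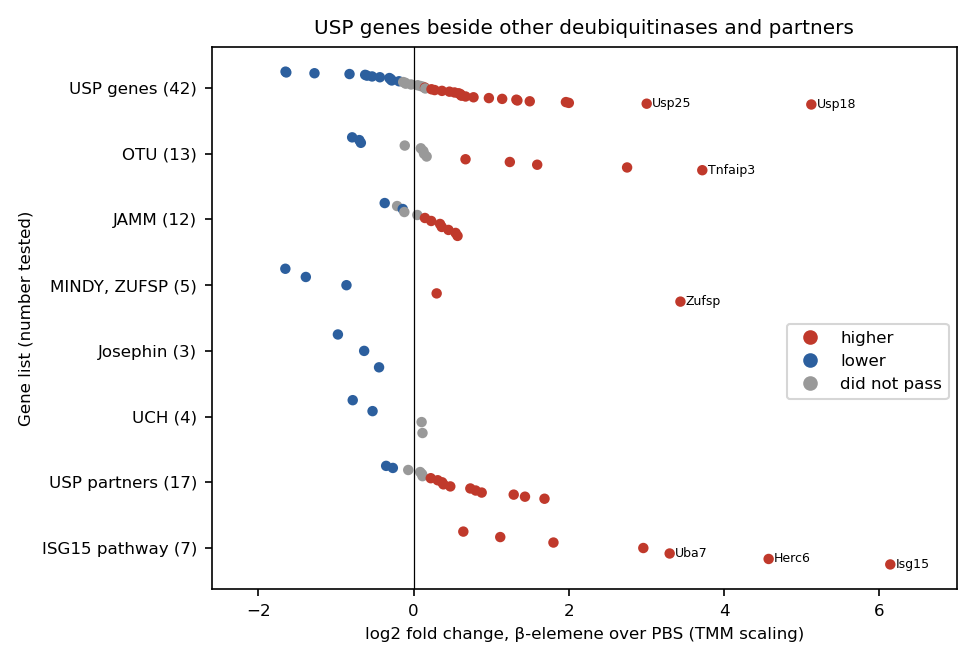
log2 fold change, β-elemene over PBS with TMM scaling, of the 42 tested USP genes beside 5 other deubiquitinase families, USP partners and the ISG15 pathway; each point is a gene, coloured by its call. Usp18 at 5.12 stands with Isg15 at 6.14 and Herc6 at 4.57, while most other points lie between -2 and 2.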

How the data were processed

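Libraries were made with a stranded mRNA kit and sequenced as paired reads, per the labels' protocols. Per the submitters' processing notes, tools and builds included HISAT2 2.2.1.0, mm10 and GRCm38.p6. What the authors deposited is 1 table of raw counts by gene. How reads were assigned to genes, whether by strand, and with which filters is not given in the sources used here, so similar copies and antisense genes are uncertain. Genes kept by filterByExpr (at least 10 counts, total at least 15) numbered 11459 of 21878. They were scaled by TMM and fitted in R 4.3.3 by edgeR 4.0.16 (robust glmQLFit, then glmQLFTest, group only, 4 residual degrees of freedom), with Benjamini-Hochberg adjustment at 0.05. The SE comes from the fold change and F statistic. Ratios of pairs used counts plus 0.5. Replicate pairs differed beyond sampling noise (chi-square 3.77 to 13.5 times its degrees of freedom). Coordinates and promoters are RefSeq's, GRCm38.p6, matched by gene identifier. Alternatives were 3 other scalings, 2 other filters, DESeq2 1.42.0, limma-voom 3.58.1, a replicate block and leaving out each library. The procedure was checked on simulated counts in which few genes changed and rises and falls were equally likely. That setting differs from these data, so the check does not bear on the choice of scaling. Members, gene lists and pairs were chosen with earlier results of these data known. Values per library are given for Usp18 and for the 12 largest rises and 12 largest falls with a mean of at least 1 CPM. Pairs were named by rule, and other lists by up to 4 passing genes per direction. Many of these pairs and listed genes have only a difference or a fold change. Uspl1, Fam188b, Wdr48, Wdr20, the smaller rises and members that did not pass were named outside these rules.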

Additional observations from a re-analysis of the deposited data

How the results depend on the processing

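Of 588 recomputed fold changes of single members, 530 kept their direction and side of the threshold. Falls among USPs numbered 21 with upper quartile scaling and 26 with library size alone, where 8 rose. The family median was 0.19 with median-of-ratios scaling and with DESeq2, -0.17 with the upper quartile, -0.49 with library size alone, and 0.14 to 0.17 on leaving out 1 library. Genes listed under the other deubiquitinase families had 8 rises and 20 falls with the upper quartile, and 5 and 26 with library size alone. USP partners had 7 and 5, and 5 and 11. Signs turned with library size alone for Usp11 (-0.035), Usp16 (-0.49), Usp21 (-0.49), Usp22 (-0.18), Usp24 (-0.41), Usp3 (-0.029), Usp31 (-0.27), Usp33 (-0.51), Usp34 (-0.55), Usp38 (-0.58), Usp4 (-0.058), Usp40 (-0.37), Usp7 (-0.021) and Usp8 (-0.11), and with the upper quartile for Usp16 (-0.17), Usp21 (-0.16), Usp24 (-0.085), Usp33 (-0.19), Usp34 (-0.22), Usp38 (-0.26) and Usp40 (-0.043). These scalings shift all genes together. Usp19 turned to 0.0079 with median-of-ratios scaling and with DESeq2. On leaving out 1 library Usp19 ran from -0.0704 to 0.060, Usp46 from -0.203 to 0.088 and Usp54 from -0.23 to 0.034, each with its highest value without β-elemene replicate 2. Usp4 over Usp11 ran from -0.12 to 0.10 over the leave-one-out ratios. Same-numbered libraries showed little shared deviation (correlations -0.02, 0.09 and 0.04), which cannot tell whether the numbers pair the samples. The edgeR fit with a replicate block gave 20 rises and 12 falls, losing Usp16 (adjusted p = 0.0534) and Usp45 (0.0502). The share over all genes is not given for that fit. Depth limits the 8 members that were not tested.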
